A study of Mus musculus with 32 samples.

Results

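The subject is a difference of differences in mouse amygdala: how far the change from baseline to chronic stress in mice injected with 4-thiouridine (4sU) departed from the same change in mice injected with DMSO alone. It was computed for each gene as (chronic stress minus baseline in 4sU mice) minus (chronic stress minus baseline in DMSO mice), on the log2 scale. Its members are all libraries of those 4 groups, 16 of the 32 samples in the series. There were 5 baseline 4sU, 4 chronic stress 4sU, 4 baseline DMSO and 3 chronic stress DMSO libraries. All mice carried the genotype WT. All received a stereotaxic injection into the amygdala 24 h before RNA was taken. The 4sU groups were given 100 mM 4sU dissolved in DMSO, and the DMSO groups received the solvent, so DMSO and the injection itself are common to all 4 groups. RNA of the amygdala of both sides was extracted with Trizol and alkylated in every group. The sources used here do not give the kind or length of the stress, nor the age of the mice. Replicates are separate samples by their labels alone, and a p-value here reflects only how much these samples vary, which may be technical.

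4sU is a uridine analogue that cells build into the RNA they make while it is present. Alkylation changes its base pairing, so that sequencing reads a C where the gene encodes a T. Where the stress response of an RNA is alike with and without 4sU, its difference of differences is near 0. The amygdala holds glutamatergic and GABAergic neurons, astrocytes, microglia, blood vessels and myelinating oligodendrocytes, and it takes part in learned fear and in the response to stress. Glucocorticoid hormones released under stress act in it through nuclear receptors that switch on genes such as Fkbp5, Sgk1 and Tsc22d3.

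The 16 libraries held 16150316 to 17596612 exon counts each, and 16096 of 25239 genes had enough counts to be tested. All 5 broad classes of brain cell were present by their markers: the neuronal gene Snap25, the myelin gene Mbp, the astrocyte gene Gfap, the microglial gene P2ry12 and the endothelial transporter Slco1a4 were measured in every library. Glutamatergic neuron markers differed among the chronic libraries. Their mean log2 CPM (exon counts scaled to library size) was 5.32, 5.25, 4.25 and 4.34 in the 4 chronic 4sU libraries and 3.41, 5.32 and 5.16 in the 3 chronic DMSO libraries. It was 5.33 to 5.69 in baseline 4sU and 4.75 to 5.10 in baseline DMSO libraries. Chronic DMSO library 1 was thus the lowest, and chronic 4sU libraries 3 and 4 came next. Choroid plexus and ependymal markers averaged 2.74 to 5.04 in chronic 4sU libraries and 4.66 to 5.45 in the other 3 groups. In bulk tissue, fewer cells of a type and less RNA per cell cannot be told apart.

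The baseline 4sU libraries stood apart from the other 11 before any gene was tested. The header of each deposited conversion table holds a sample number. These numbers form a set from 0 to 9, which covers the baseline 4sU libraries and those of acutely stressed 4sU mice, and a set from 0 to 15, which covers all other amygdala libraries. The headers do not say what a set is. Of the 4 groups compared here, baseline 4sU alone belonged to the smaller set, so the set and that group cannot be told apart, and no difference of differences could be computed within a set. For each gene, the T content of its annotated 3′ UTR interval was taken from the same tables. The median relative log2 CPM of 3310 T-rich genes (at least 32% T), less that of 1624 T-poor genes (under 24% T), was -0.47 to -0.39 in baseline 4sU libraries. It was 0.23 to 0.27 in baseline DMSO, 0.26 to 0.31 in chronic 4sU and 0.27 to 0.33 in chronic DMSO libraries. It was -0.50 to -0.36 in acute 4sU libraries, which share the set of the baseline 4sU libraries, and 0.07 to 0.39 in acute DMSO libraries. Covered T positions per read in 3′ UTR intervals divided the libraries in the same way. They numbered 34.2 to 34.6 in baseline 4sU and 34.3 to 34.6 in acute 4sU libraries. The values were 37.0 to 37.2 in chronic 4sU, 36.7 to 37.1 in baseline DMSO, 37.1 to 37.3 in chronic DMSO and 36.8 to 37.4 in acute DMSO libraries. The part of this division in the gene results below was not tested beyond the values given beside them.

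**Figure D1:**
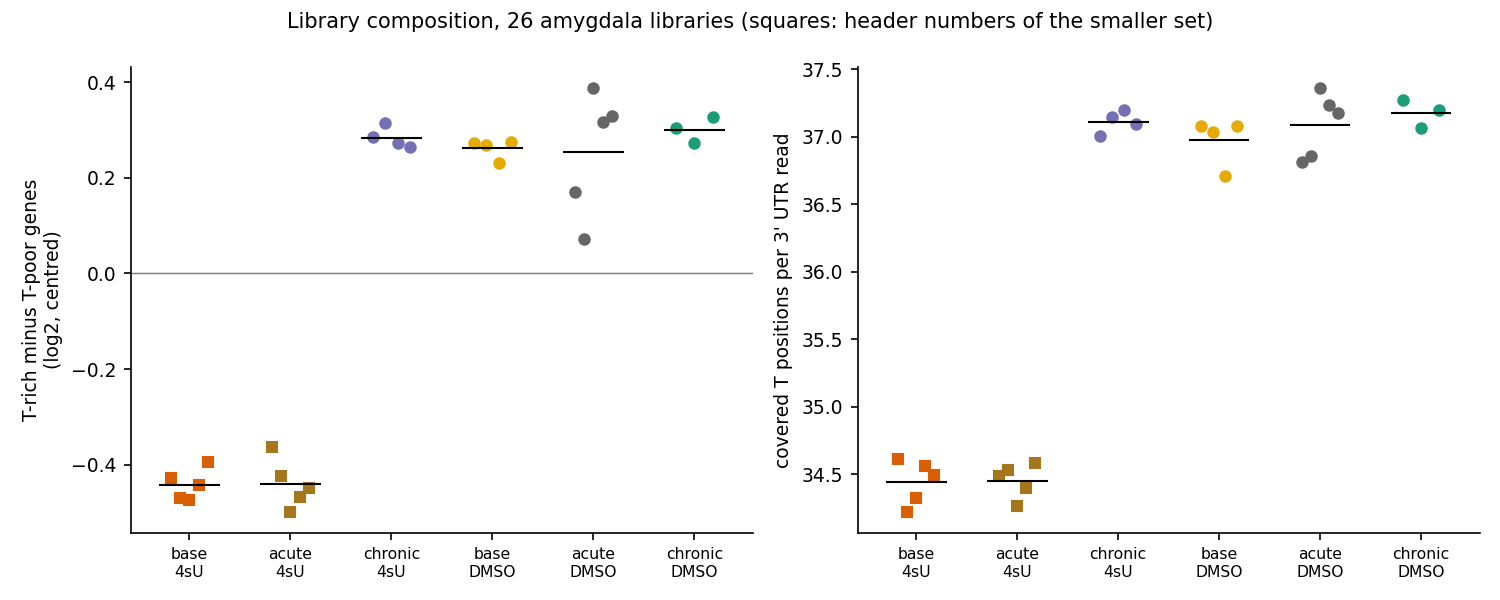
Composition of each of the 26 amygdala libraries by group: on the left the median relative log2 CPM of T-rich genes less that of T-poor genes, on the right the covered T positions per read in 3′ UTR intervals. Each point is a library, and squares mark the groups of the smaller numbered set. Baseline 4sU and acute 4sU libraries lie at -0.50 to -0.36 on the left and 34.2 to 34.6 on the right, below all others.

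The chronic stress response differed between injection arms for 6121 of 16096 genes, 38% of those tested. The difference was called positive for 2917 genes (18.1%) and negative for 3204 (19.9%), with a median of -0.03 over all genes (edgeR's quasi-likelihood test, adjusted p under 0.05). Genes counted below as positive or negative are those called. An unadjusted p under 0.05 was reached by 7404 genes. Most differences were small: 312 of the positive and 276 of the negative ones reached a log2 of 1, and 36 and 25 reached a log2 of 2. The 4 simple comparisons behind them share libraries, and their counts were far apart. Between chronic stress and baseline, 9097 genes (56.5%) were called in 4sU mice, 4336 higher and 4761 lower. In DMSO mice the call count was 0 (0%) by edgeR, with 913 at an unadjusted p under 0.05, 11 by DESeq2 and 0 by limma-voom. Between 4sU and DMSO mice, 8489 genes (52.7%) were called at baseline, 4360 higher and 4129 lower with 4sU. Under chronic stress the same comparison gave 22 (0.137%), with 1475 at an unadjusted p under 0.05, 142 by DESeq2 and 22 by limma-voom.

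One group, baseline 4sU, had the lowest or highest mean in nearly all of these genes. Of the 2917 genes with a positive difference, 2881 had their lowest mean of the 4 groups in baseline 4sU mice. In 2303 of them all 5 baseline 4sU libraries lay below the other 11. Of the 3204 genes with a negative difference, 3110 had their highest mean in baseline 4sU mice, and in 2577 all 5 libraries lay above the other 11. The genes were picked by a test that uses the baseline 4sU libraries, so such separation is in part built in. Its share over all genes tested was not computed. The median of the positive genes was 0.55 for the difference of differences, 0.55 for chronic stress in 4sU mice, 0.01 for chronic stress in DMSO mice, -0.51 for 4sU against DMSO at baseline and 0.04 for 4sU against DMSO under chronic stress. For the negative genes these medians were -0.52, -0.53, -0.01, 0.49 and -0.02.

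Among genes with a mean of at least 5 CPM, several of the largest positive differences came from genes of oligodendrocytes, the cells that wrap axons in myelin. Tspan2, a tetraspanin of myelinating oligodendrocytes (chromosome 3, 102734770 to 102772310 in mm10), was at 100, 122, 133, 116 and 118 CPM in the 5 baseline 4sU libraries. It was at 344, 356, 323 and 292 CPM in baseline DMSO, 517, 462, 473 and 458 CPM in chronic 4sU, and 368, 306 and 309 CPM in chronic DMSO libraries. Baseline 4sU libraries were therefore the lowest and chronic 4sU libraries the highest, with no overlap of either with any other group. The difference of differences for Tspan2 was 2.03 ± 0.12 (log2 ± SE, adjusted p = 5.64e-09). The myelin and lymphocyte protein Mal had 1.76 ± 0.15 (adjusted p = 2.86e-07). Ugt8a, which makes the myelin lipid galactosylceramide, had 1.76 ± 0.26 (adjusted p = 0.000122).

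The other large positive differences came from genes of varied roles. Slc6a3, the dopamine transporter of midbrain dopamine neurons, had the largest at 5.07 ± 1.41 (adjusted p = 0.0127), but its groups overlapped. It was at 0.485, 1.66, 1.3, 0.669 and 0.436 CPM in baseline 4sU libraries and 29.1, 11.4, 2.78 and 39.9 CPM in chronic 4sU libraries. Baseline DMSO libraries held 20.7, 6.65, 1.55 and 3.09 CPM of Slc6a3, and chronic DMSO libraries 1.35, 10.2 and 4.55 CPM. Values within a group thus differed by more than 10 times in places, and the call was lost under 5 alternatives, among them a term for the share of reads in 3′ UTR intervals (adjusted p = 0.148). That share was 16.4% to 17.2% in baseline 4sU libraries and 18.2% to 20.3% in the other groups compared. The term thus overlaps with the baseline 4sU group, and a call lost with it, here and below, need not mean a smaller difference. The synaptonemal complex gene Sycp3 had 1.85 ± 0.23, the cadherin Cdh19 1.76 ± 0.19, and the NAD-consuming enzyme Cd38 1.66 ± 0.20. For these 3 genes the baseline 4sU libraries, at 1.84 to 3.24, 7.28 to 11.3 and 3.87 to 6.63 CPM, lay below every library of the other groups.

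**Figure D2:**
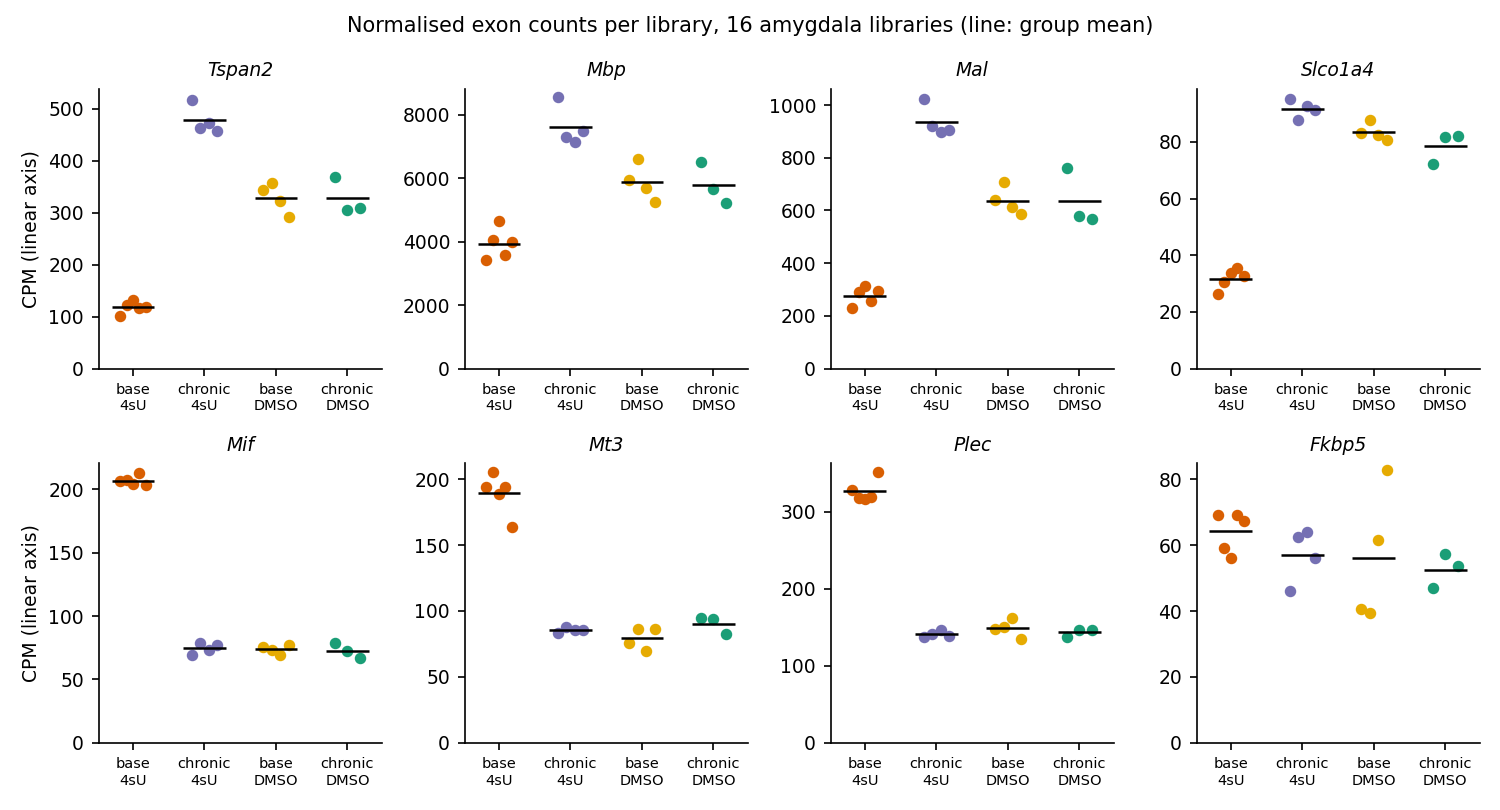
Normalised exon counts of 8 genes, in CPM on linear axes from 0, for each of the 16 libraries by group. Points are libraries and lines are group means. Tspan2, Mbp, Mal and Slco1a4 are lowest, and Mif, Mt3 and Plec highest, in all 5 baseline 4sU libraries, while the groups overlap for Fkbp5.

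The largest negative differences were less even between libraries. The neuronal pentraxin receptor Nptxr, a synaptic protein, was at 113, 99.9, 75, 96 and 81.6 CPM in baseline 4sU libraries. It was at 22.8, 16.6, 36.9 and 18.3 CPM in baseline DMSO, 24.5, 29, 7.09 and 10.9 CPM in chronic 4sU, and 6.01, 29.4 and 27.1 CPM in chronic DMSO libraries. Baseline 4sU libraries were the highest with no overlap, and the difference was -2.21 ± 0.69 (adjusted p = 0.0226). With the 3′ UTR term Nptxr had -0.597 (adjusted p = 0.697), Fibcd1 -0.728, Rtn4rl2 -0.966 and Igfn1 -0.859 (adjusted p = 0.702, 0.59 and 0.623), and Tgm1 had -4.47 (adjusted p = 0.0658). Nptxr was also not called without chronic DMSO library 2 (-1.84, adjusted p = 0.0787) or library 3 (-1.94, adjusted p = 0.0678). Glutamatergic markers were low in the remaining chronic DMSO library 1, and their part in this result was not tested. Fibcd1, a chitin-binding receptor, had -2.61 ± 0.87 (adjusted p = 0.0315), the transglutaminase Tgm1 -2.52 ± 0.90 (adjusted p = 0.0429), and Rtn4rl2, a Nogo receptor homologue, -2.06 ± 0.74 (adjusted p = 0.0428). Fibcd1 lost its call without any 1 of 7 libraries, Tgm1 without any 1 of 12 and Rtn4rl2 without any 1 of 11, with adjusted p up to 0.133, 0.127 and 0.162, each without chronic DMSO library 2. The muscle protein gene Igfn1 had -1.82 ± 0.67 (adjusted p = 0.0453), and lost its call without any 1 of 11 libraries (adjusted p up to 0.111, without that same library).

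Further negative differences were found for C3, the central complement component, at -2.09 ± 0.57 (adjusted p = 0.0103), for the interferon-induced Bst2 at -2.06 ± 0.53 (adjusted p = 0.00646), and for Dio3, which inactivates thyroid hormone, at -1.96 ± 0.63 (adjusted p = 0.0236). C3 was at 4.37 to 10.4 CPM in baseline 4sU, 2.27 to 7.23 in chronic 4sU, 2.68 to 7.02 in baseline DMSO and 5.65 to 13.4 in chronic DMSO libraries. The groups overlapped for C3 and for Bst2, and in both the injection arms had opposite signs. The chronic minus baseline difference was -1.03 in 4sU mice and 1.06 in DMSO mice for C3, and -1.19 and 0.87 for Bst2. Dio3 was highest in baseline 4sU libraries, at 4.73 to 14.3 CPM, and lost its call without chronic DMSO library 2 (-1.45, adjusted p = 0.114). With the term for the share of 3′ UTR reads C3 had -1.24 (adjusted p = 0.394) and Dio3 -0.495 (adjusted p = 0.736). With reads of 3′ UTR intervals in place of exon counts Bst2 had -1.31 (adjusted p = 0.106).

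Among cell types, markers of oligodendrocytes showed the most one-sided pattern. Of 18 measured oligodendrocyte and myelin markers, 16 were called positive and 0 negative, with a median of 1.29. Over all genes 18.1% were called positive and 19.9% negative, with a median of -0.03. The members without a call were the iron carrier Trf (-0.02) and the lysophospholipase Enpp2 (-0.07), which choroid plexus cells also express strongly. Mbp, the myelin basic protein, went from 3419 to 4647 CPM in baseline 4sU libraries to 7145 to 8552 CPM in chronic 4sU libraries. Baseline DMSO libraries held 5257 to 6591 CPM of Mbp and chronic DMSO libraries 5224 to 6515, and its difference was 0.97 ± 0.14 (adjusted p = 3.04e-05). The mean log2 CPM of the 18 markers was 7.54, 7.82, 8.04, 7.70 and 7.76 in baseline 4sU libraries. It was 8.77, 8.87, 8.65 and 8.48 in baseline DMSO, 9.20, 9.03, 8.87 and 9.05 in chronic 4sU, and 8.94, 8.75 and 8.68 in chronic DMSO libraries. Baseline 4sU libraries lay below all others, and the acute 4sU libraries of the same numbered set were as low, at 7.71 to 7.97. The median T content of the markers' 3′ UTR intervals was 29.6%, near the 29.0% of all genes. With an offset that removes the trend with T content, 14 of the 18 were positive, the median was 1.31, and Mal and Mbp had 1.93 and 1.30.

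Precursors of oligodendrocytes were divided. Of 12 markers, 4 were called positive and 3 negative, with a median of 0.07. The positive members with the smallest p were Lhfpl3 (1.06 ± 0.14), the proteoglycan Vcan (0.64 ± 0.09) and Gpr17 (0.85 ± 0.13), a receptor of cells that are about to become oligodendrocytes. With reads of 3′ UTR intervals in place of exon counts Vcan had 0.391 and was not called (adjusted p = 0.062). Gpr17 was at 54.7 to 71.4 CPM in baseline 4sU, 62.9 to 76.2 in baseline DMSO, 57.4 to 70.6 in chronic DMSO and 95.5 to 110 in chronic 4sU libraries. For Gpr17, unlike Tspan2, the 3 other groups overlapped and chronic 4sU libraries alone stood apart.

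Endothelial and mural markers, genes of blood vessel cells, came second: 10 of 18 were called positive and 0 negative, with a median of 0.49. Called or not, 16 of the 18 were above 0. Slco1a4, an organic anion transporter of the blood-brain barrier, was at 26.3, 30.7, 33.6, 35.4 and 32.7 CPM in baseline 4sU libraries. All 11 other libraries held 72 to 95.2 CPM of Slco1a4, and the difference was 1.62 ± 0.10 (adjusted p = 1.73e-08). The efflux pump Abcb1a had 1.21 ± 0.16 (adjusted p = 1.22e-05), and the pericyte regulator Rgs5 had 1.07 ± 0.12 (adjusted p = 2.18e-06). The mean log2 CPM of the list was 4.16 to 4.40 in baseline 4sU libraries and 4.78 to 4.92 in the other 3 groups, without overlap. With the T content offset 12 of the 18 were positive and 0 negative.

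Other glial and border lists leaned less, beside shares of 18.1% positive and 19.9% negative over all genes. Of 16 astrocyte markers 6 were positive and 1 negative (median 0.12), led by the bicarbonate transporter Slc4a4 (0.58 ± 0.08), glutamine synthetase Glul (0.44 ± 0.08) and connexin 30, Gjb6 (0.64 ± 0.12). With the 3′ UTR term Glul had 0.316 and was not called (adjusted p = 0.0763). Microglia, the resident macrophages, had 2 positive and 6 negative of 16 (median -0.23). Their purinergic receptor P2ry12 (0.94 ± 0.17) and Siglech (0.80 ± 0.18) were positive, and the lysosomal protein Laptm5 (-0.86 ± 0.11) was negative, so markers of 1 cell type moved in opposite directions. With the 3′ UTR term Siglech had 0.202 and was not called (adjusted p = 0.62). Choroid plexus and ependymal markers had 0 positive and 1 negative of 16, the ciliary gene Cfap126 (-1.10 ± 0.38), with a median of -0.54. Cfap126 lost its call without baseline 4sU library 4, baseline DMSO library 2 or 4, or chronic DMSO library 2 or 3 (adjusted p up to 0.0803), and with the 3′ UTR term it had -0.345 (adjusted p = 0.716). Meningeal and fibroblast markers had 2 positive, Ogn (1.56 ± 0.50) and Ptgds (0.49 ± 0.17), and 1 negative, Bmp6 (-0.74 ± 0.23), of 15 (median 0.38). Ogn lost its call without chronic DMSO library 3 (adjusted p = 0.0509), Bmp6 without chronic DMSO library 2 (adjusted p = 0.0633) and with the 3′ UTR term (-0.27, adjusted p = 0.631), and Ptgds without baseline 4sU library 1 or 5 or chronic DMSO library 3 (adjusted p up to 0.063). Of 12 blood cell markers 2 were measured and 0 called by edgeR (median 0.92).

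Pan-neuronal, glutamatergic and GABAergic markers mostly lay below 0, though few were called (38% of all genes were). Above 0 were 3 of 12, 2 of 14 and 4 of 14, against 9 of 14 striatal and central amygdala markers. Of 12 pan-neuronal markers 1 was positive and 2 were negative (median -0.16). The RNA-binding protein Elavl4 had 1.08 ± 0.14, the tubulin Tubb3 -0.59 ± 0.09 and the neurofilament Nefl -0.53 ± 0.14. With reads of 3′ UTR intervals in place of exon counts, the last pair changed sign, to 0.18 for Tubb3 and 0.25 for Nefl. Of 14 glutamatergic markers 1 was positive and 1 negative although the median was -0.97. The vesicular glutamate transporter Slc17a6 had 1.38 ± 0.36 (adjusted p = 0.00844), and the kinase subunit Camk2a had -0.85 ± 0.26 (adjusted p = 0.0184), which was lost without chronic DMSO library 2 (-0.64, adjusted p = 0.0728) or 3 (-0.73, adjusted p = 0.0607). With the 3′ UTR term Slc17a6 had 1.25 (adjusted p = 0.183) and Camk2a -0.397 (adjusted p = 0.536). Slc17a7, the transporter of cortical and amygdalar projection neurons, was at 47.9, 587 and 487 CPM in the chronic DMSO libraries and 483, 540, 113 and 195 CPM in the chronic 4sU libraries. Its difference of -1.25 ± 0.88 did not pass (adjusted p = 0.292).

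Single markers of inhibitory neurons had opposite signs. Of 14 GABAergic markers 1 was positive and 4 were negative (median -0.28), against 18.1% and 19.9% of all genes. The calcium buffer Pvalb was at 14.2 to 19.8 CPM in baseline 4sU libraries and 43.3 to 70.2 in the other 11, with a difference of 1.34 ± 0.15 (adjusted p = 2.13e-06). The neuropeptide Sst, by contrast, was at 285 to 338 CPM in baseline 4sU libraries and 143 to 197 CPM in the other 11, with -0.97 ± 0.11 (adjusted p = 2.32e-06). Neuropeptide Y, Npy, had -0.84 ± 0.17, but -0.11 (adjusted p = 0.786) with 3′ UTR reads. Gad1, which makes GABA in all these neurons, had 0.20 ± 0.11 and did not pass (adjusted p = 0.164). Striatal and central amygdala markers had 1 positive, Isl1 (1.01 ± 0.21, and 0.645 with an adjusted p of 0.188 with the 3′ UTR term), and 0 negative of 14 (median 0.14). Of 17 measured hypothalamic and thalamic markers 2 were positive, Lmx1b (2.27 ± 0.62) and Lhx1 (1.67 ± 0.60), and 1 negative, Pomc (-1.22 ± 0.37), with a median of 0.20. All 3 were at 4.8 CPM or less in each of the 16 libraries, and Lhx1 lost its call without any 1 of 9 libraries (adjusted p up to 0.0762). With the 3′ UTR term Lmx1b had 1.83, Lhx1 2.29 and Pomc -1.08 (adjusted p = 0.17, 0.065 and 0.264). The mean log2 CPM of this list was 1.22 to 2.15 in chronic 4sU and 0.41 to 1.29 in baseline 4sU libraries, 0.745 to 0.90 in chronic DMSO and 0.40 to 0.71 in baseline DMSO libraries. Chronic 4sU libraries thus held more of these markers of neighbouring regions than DMSO libraries of either state, and Slc6a3 and Slc17a6 had their highest means there too. The part of this in the results was not tested.

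**Figure D3:**
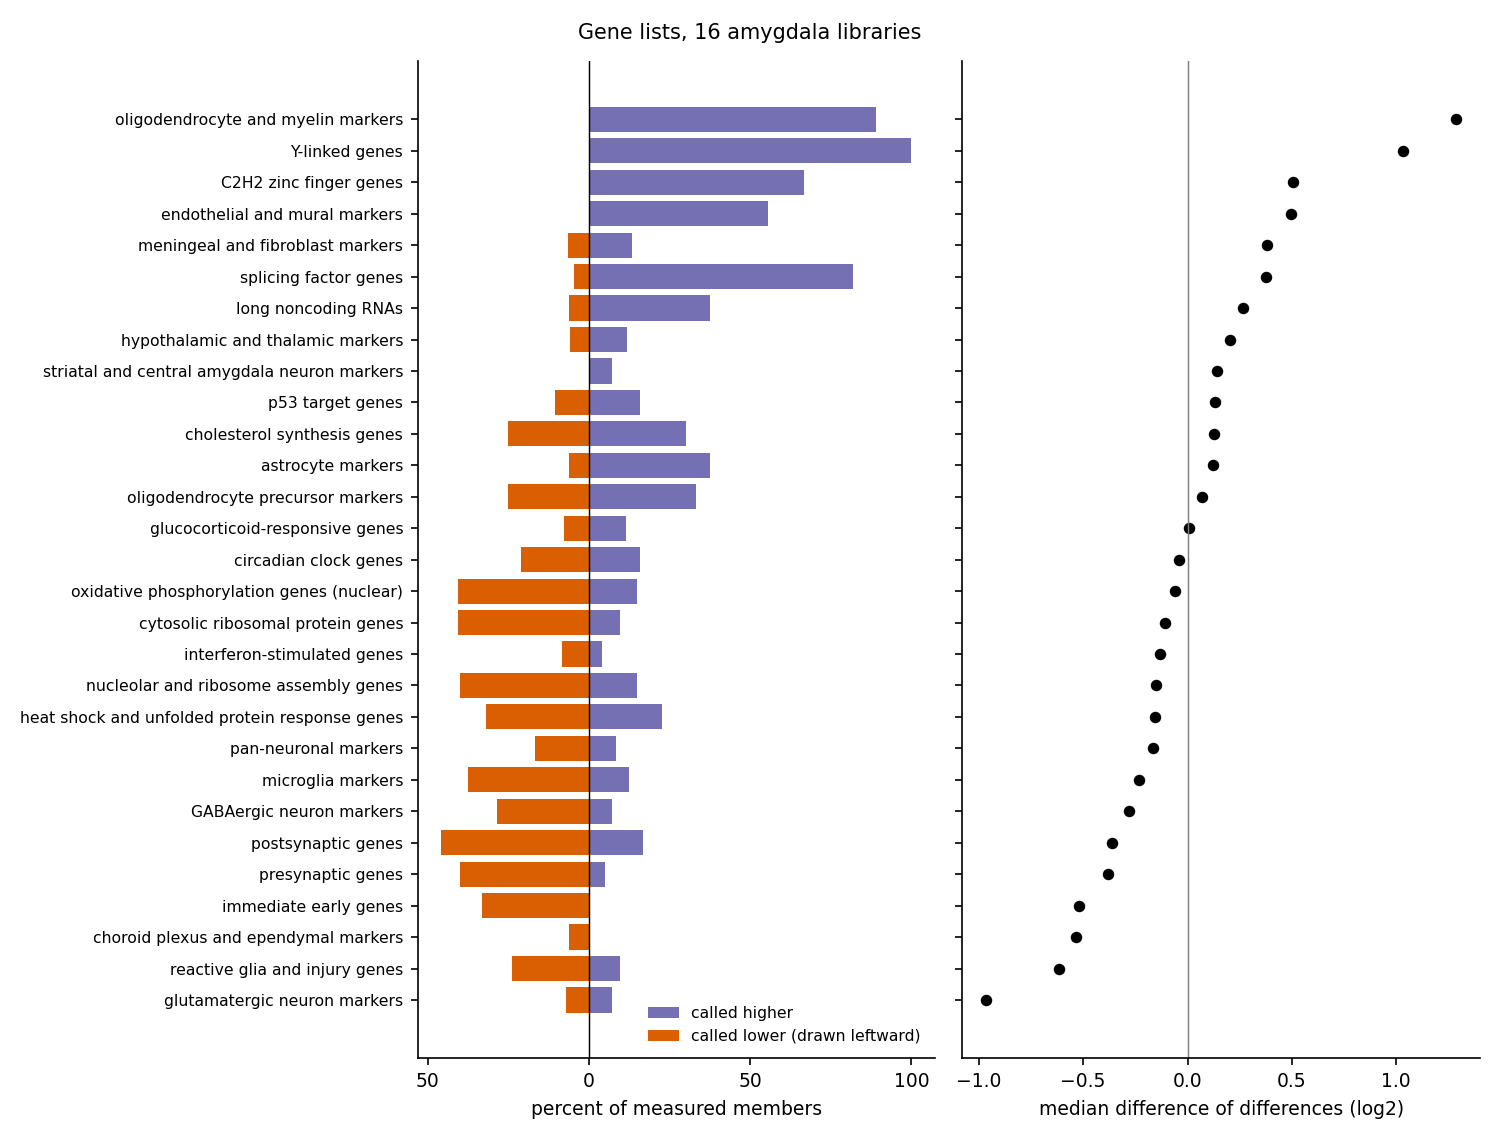
For each gene list with at least 4 measured members, the left panel shows the percent of measured members with a positive (right) or negative (left) difference past the threshold, and the right panel the median difference of differences in log2. Oligodendrocyte and myelin markers have the highest median, 1.29, and glutamatergic markers the lowest, -0.97, although 1 glutamatergic marker passed in each direction.

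Genes of the stress hormone response showed no common direction. Of 26 glucocorticoid-responsive genes 3 were positive and 2 negative, against 18.1% and 19.9% of all genes, with a median of 0.01. Tsc22d3, which encodes the glucocorticoid-induced leucine zipper, was at 44.5, 55.5, 51.5, 53.9 and 39.3 CPM in baseline 4sU libraries. The other libraries held 66.9 to 101 CPM of Tsc22d3, without overlap, and its difference was 0.97 ± 0.17 (adjusted p = 0.000324). Nr3c1, the glucocorticoid receptor itself, had 0.55 ± 0.10 (adjusted p = 0.000212). The metal-binding protein Mt1 was negative, at -0.87 ± 0.19 (adjusted p = 0.00199). With the 3′ UTR term the 3 had 0.64, 0.427 and -0.981 (adjusted p = 0.106, 0.0607 and 0.0512). Fkbp5, a co-chaperone of the receptor, was at 69.1, 59.3, 56.1, 69.1 and 67.2 CPM in baseline 4sU and 46, 62.4, 64.1 and 56.1 CPM in chronic 4sU libraries. It was at 40.6, 39.3, 61.7 and 82.7 CPM in baseline DMSO and 46.9, 57.4 and 53.6 CPM in chronic DMSO libraries. All groups overlapped, and the difference for Fkbp5 was -0.08 ± 0.29 (adjusted p = 0.863), which changed sign under 5 alternatives. The kinase Sgk1 had 0.71 ± 0.60 (adjusted p = 0.38) and the stress peptide Crh 0.41 ± 0.30 (adjusted p = 0.299).

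Genes of neuronal activity and synapses had more negative than positive calls, as had the most abundant genes. Over all genes 18.1% were positive and 19.9% negative, and at a mean log2 CPM of 8 and over 19.1% and 37.7%. Immediate early genes, the fast transcriptional answer of neurons to firing, had 0 positive and 10 negative of 30, with a median of -0.52. The transcription factor Jund had -0.63 ± 0.10, the pentraxin Nptx2 -0.98 ± 0.22 and Ier2 -1.22 ± 0.33. With 3′ UTR reads Nptx2 had -0.666 and Ier2 -0.627 (adjusted p = 0.066 and 0.287). The classical members did not pass: Fos had -0.45 ± 0.50 (adjusted p = 0.512), Arc -0.66 ± 0.53 (adjusted p = 0.356), Npas4 -0.62 ± 0.45 (adjusted p = 0.3) and Bdnf -0.68 ± 0.73 (adjusted p = 0.498). The count of negative members was 3 with the T content offset, and 3 without baseline DMSO library 3 or chronic DMSO library 2. It was 4 without baseline DMSO library 1, chronic 4sU library 1 or chronic DMSO library 3. It was 5 without baseline 4sU library 3, baseline DMSO library 2 or chronic 4sU library 2, and 6 without chronic 4sU library 3 or chronic DMSO library 1.

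Presynaptic genes had 1 positive and 8 negative of 20 (median -0.38), with the vesicle-priming factor Unc13a at -0.69 ± 0.07 and the vesicle GTPase Rab3a at -0.59 ± 0.08. Without chronic DMSO library 1 the negative count was 14. The presynaptic list averaged a log2 CPM of 8.39 to 9.17 in the libraries of the 4 groups. Of all genes at 8 and over, 37.7% were negative. Postsynaptic genes had 4 positive and 11 negative of 24 (median -0.36). The adhesion protein Nlgn2, at 420 to 437 CPM in baseline 4sU libraries and 260 to 301 CPM in all others, was negative (-0.60 ± 0.07). Without chronic DMSO library 3 the negative postsynaptic count was 7, and with the T content offset it was 5. The postsynaptic list averaged a log2 CPM of 7.85 to 8.37. The median T content of the 3′ UTR intervals was 26.7% for presynaptic and 27.4% for postsynaptic genes, against 29.0% for all genes.

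Of 22 splicing factor genes 18 were positive and 1 negative, against 18.1% and 19.9% of all genes, with a median of 0.38. The splicing regulator Tra2a was at 64 to 71.7 CPM in baseline 4sU libraries and 111 to 131 CPM in all others (0.91 ± 0.07, adjusted p = 8.91e-08), and Srsf1 (0.71 ± 0.06) and Srsf3 (0.81 ± 0.08) behaved alike. The median T content of their 3′ UTR intervals was 35.5%, above the 29.0% of all genes. With the T content offset 9 of 21 were positive and 2 negative, and the median was 0.08. C2H2 zinc finger genes, a large family of DNA-binding proteins, had 20 positive and 0 negative of 30 (median 0.50), with Zfp101 at 1.40 ± 0.15, Zfp322a at 0.96 ± 0.08 and Zfp91 at 0.70 ± 0.08. With 3′ UTR reads Zfp101 had 0.445 and was not called (adjusted p = 0.249). Counts of members with near-identical relatives in this family are uncertain. With the offset 13 were positive and 0 negative (median 0.26). All 4 Y-linked genes were positive (median 1.03), among them the helicase Ddx3y (1.11 ± 0.11), Eif2s3y (1.10 ± 0.12) and the demethylase Uty (0.96 ± 0.11). Ddx3y was present at 42.9 to 61.4 CPM in baseline 4sU libraries and 104 to 122 CPM in the other 11. The median T content of these 4 genes was 37.6%, and with the offset their median was 0.72. Of 16 measured long noncoding RNAs 6 were positive, including the neuronal host transcript Snhg11 (0.81 ± 0.09) and the imprinted Rian (0.46 ± 0.08), and 1, Peg13 (-0.27 ± 0.06), was negative (median 0.27). With the 3′ UTR term Peg13 had -0.258 and was not called (adjusted p = 0.0862). Malat1 had 0.04 ± 0.28 (adjusted p = 0.921).

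Beside 18.1% positive and 19.9% negative over all genes, nuclear genes of oxidative phosphorylation had 8 positive and 22 negative of 54. In this list 25 were above 0, and the median was -0.06, near that of all genes (-0.03). The list was led by Uqcrc1 (-0.62 ± 0.06), Atp5d (-0.74 ± 0.08) and Ndufs7 (-0.84 ± 0.11) of respiratory complexes. Cytosolic ribosomal protein genes had 4 positive and 17 negative of 42 (median -0.11), with Rps16 at -0.87 ± 0.11, Rpl13 at -0.72 ± 0.10 and Rpl8 at -0.67 ± 0.10. Many of these have processed pseudogenes that can share reads, so their counts are uncertain. Nucleolar and ribosome assembly genes had 3 positive and 8 negative of 20 (median -0.15), with Bop1 at -0.63 ± 0.09, Pes1 at -0.46 ± 0.08 and Nop58 at 0.55 ± 0.10. With 3′ UTR reads Uqcrc1, Rpl8, Bop1 and Nop58 had -0.38, -0.864, -0.553 and 0.139 and were not called (adjusted p = 0.24, 0.247, 0.185 and 0.811).

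The remaining lists were split or small, and over all genes 18.1% were positive and 19.9% negative. Cholesterol synthesis, which myelinating cells need, had 6 positive and 5 negative of 20 (median 0.13): the enzymes Msmo1 (0.93 ± 0.12) and Idi1 (1.03 ± 0.19) were positive, and their regulator Srebf2 (-0.78 ± 0.07) was negative. With 3′ UTR reads Idi1 had 0.566 and was not called (adjusted p = 0.0976). Heat shock and unfolded protein response genes had 5 positive and 7 negative of 22 (median -0.16), with the chaperones Dnajb9 (0.88 ± 0.09) and Dnaja1 (0.54 ± 0.07) above 0 and Hsp90ab1 (-0.29 ± 0.06) below. With the 3′ UTR term Hsp90ab1 had -0.222 and was not called (adjusted p = 0.0986). Interferon-stimulated genes had 1 positive, Ifit2 (0.59 ± 0.18), and 2 negative, Bst2 and Ifi27 (-0.59 ± 0.20, and -0.171 with 3′ UTR reads), of 24 (median -0.13). Ifi27 lost its call without any 1 of 7 libraries (adjusted p up to 0.145, without chronic DMSO library 2). Reactive glia and injury genes had 2 positive and 5 negative of 21 (median -0.61), with the intermediate filament Vim at -1.24 ± 0.32 and the lectin Lgals3 at -1.93 ± 0.47. With the 3′ UTR term Vim had -1.04 and Lgals3 -1.94, and neither was called (adjusted p = 0.204 and 0.100). Vim was also not called with 3′ UTR reads (-0.735, adjusted p = 0.152). Ceruloplasmin, Cp, had 0.74 ± 0.17 (0.239, adjusted p = 0.411, with 3′ UTR reads) and Gfap -0.61 ± 0.40 (adjusted p = 0.258). Targets of p53 had 3 positive and 2 negative of 19 (median 0.13), the former being Trp53inp1 (0.95 ± 0.13), Ccng1 (0.45 ± 0.10) and Pmaip1 (1.77 ± 0.51), which had -0.16 with the 3′ UTR term. Ccng1 had 0.449 with that term and was not called (adjusted p = 0.0551). Circadian clock genes had 3 positive, Rora (0.51 ± 0.10) among them, and 4 negative of 19 (median -0.04). Their repressors Nr1d1 (-0.90 ± 0.09) and Cry2 (-0.59 ± 0.11) were negative. Of 26 mitochondrially encoded and 20 replication-dependent histone genes 0 were measured.

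Gene length was only weakly related to the difference of differences. Across 16096 genes, Spearman's rho with exon length was 0.08 and Pearson's r 0.05, and with genomic span 0.13 and 0.10 across 16084 genes. Genes are not independent replicates, so these describe the genes only. Of 1101 genes with under 1 kb of exon, 125 were positive and 166 negative (median -0.03). Of 6322 genes with 2 to 4 kb, 1058 were positive and 1359 negative (median -0.06), and of 895 genes with 8 kb or more, 223 and 131 (median 0.08). The median exon length was 3.72 kb for positive, 3.03 kb for negative and 2.89 kb for uncalled genes. By genomic span, genes under 5 kb had 193 positive and 498 negative of 2237 (median -0.16), and genes of 50 to 100 kb 564 and 344 of 2163 (median 0.07). Genes of 200 kb or more had 140 and 107 of 926 (median 0.04), so the share did not climb steadily with span.

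Both ends of the length range held genes of both signs. Mif, a small cytokine gene (chromosome 10, 75859353 to 75860277), was at 206, 208, 204, 213 and 203 CPM in the baseline 4sU libraries. All 11 other libraries held 66.8 to 79 CPM of Mif, without overlap, and the difference was -1.45 ± 0.08 (adjusted p = 3.68e-09). With reads of 3′ UTR intervals in place of exon counts Mif had -0.20 and was not called (adjusted p = 0.693). Mt3, a short metallothionein gene of brain, had -1.33 ± 0.11 (adjusted p = 1.36e-07). The actin-severing factor gene Cfl2, which spans under 5 kb, was at 50.9 to 51.9 CPM in baseline 4sU and 102 to 127 CPM in the other libraries, with the opposite sign (1.05 ± 0.07). Among the genes with most exon sequence, the cytoskeletal linker Plec had -1.16 ± 0.08 (adjusted p = 2.51e-08) and Ttc14 0.98 ± 0.07 (adjusted p = 3.32e-08). Plec was at 316 to 352 CPM in baseline 4sU libraries and 135 to 163 CPM elsewhere. Of genes spanning 200 kb or more, Rptor, a subunit of the growth-regulating mTORC1 complex, had -0.86 ± 0.08 and the trafficking factor Trappc9 -0.93 ± 0.09.

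The share of genes called was higher at higher expression levels, and the most abundant genes were negative more often than positive. It was 5.98% at a mean log2 CPM under 0, 12.4% from 0 to 2, 29.1% from 2 to 4, 46.4% from 4 to 6, 57.2% from 6 to 8 and 56.8% from 8 up. In the range from 4 to 6, 1192 of 5244 genes were positive and 1243 negative (median -0.01). At 8 and over 130 of 681 were positive and 257 negative, with a median of -0.15. Spearman's rho between level and difference was -0.02 across 16096 genes. Mean log2 CPM per kb of exon had medians of 3.52 for positive, 3.99 for negative and 2.24 for uncalled genes.

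The T content of the 3′ UTR interval was more closely related to the sign than either. Intervals of at least 100 bases were found for 14263 of the genes. Spearman's rho between T percent and the difference of differences was 0.48 and Pearson's r 0.41 across these genes, which share libraries and differ also in length. Of 1754 genes with 20% to 24% T, 51 were positive (2.91%) and 763 negative (43.5%), with a median of -0.39. Of 4428 genes with 28% to 32%, 847 were positive (19.1%) and 590 negative (13.3%), with a median of 0.03. Of 2942 genes with 32% to 36%, 1241 were positive (42.2%) and 164 negative (5.57%), with a median of 0.29. The median T percent was 32.7 for positive, 25.8 for negative and 28.8 for uncalled genes. The length of the interval was related less closely (rho 0.23), with medians of 1.72 kb for positive, 0.759 kb for negative and 0.979 kb for uncalled genes.

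**Figure D4:**
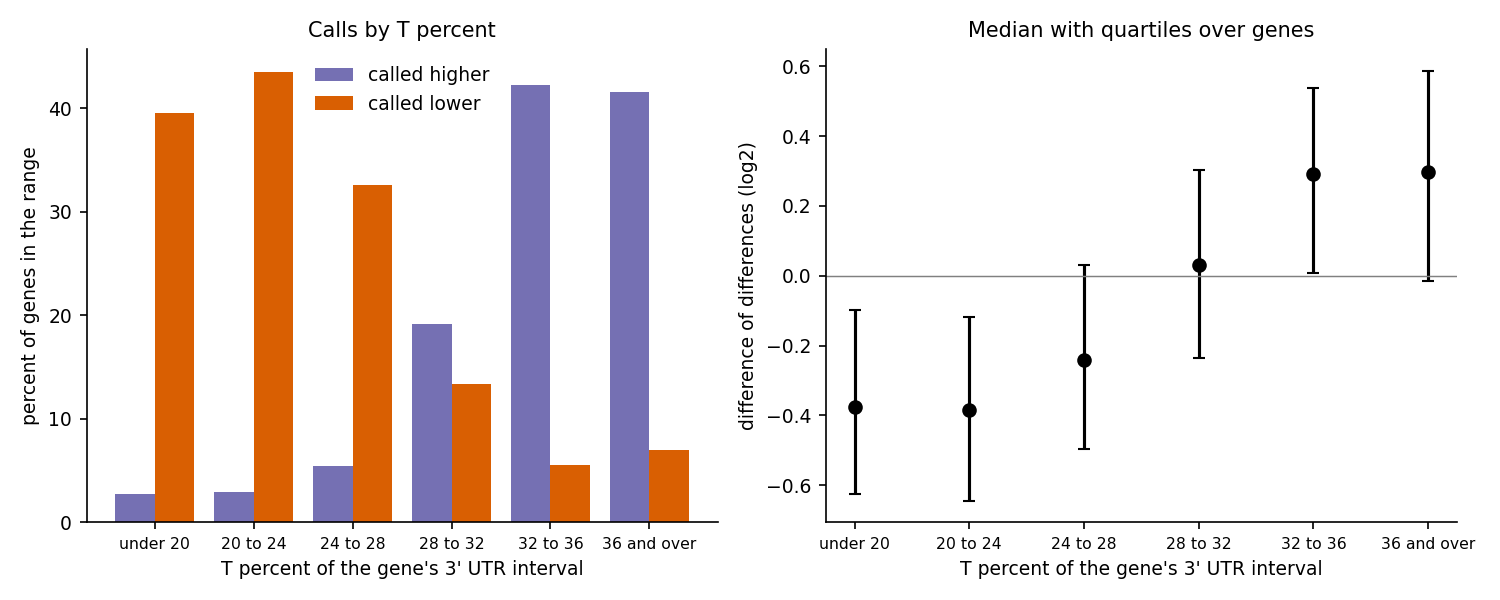
Genes grouped by the T percent of their 3′ UTR interval. The left panel gives the percent of genes called positive and negative in each range, and the right panel the median difference of differences in log2 with its quartiles. The negative share is 43.5% at 20% to 24% T and 5.57% at 32% to 36%, and the positive share 2.91% and 42.2%.

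Length and level were then described within ranges of T content. Among genes with under 28% T, the negative share was 21.5% to 40.3% over the ranges of exon length, with medians of -0.30 to -0.23. By level it went from 3.48% at a mean log2 CPM under 0 to 61.6% at 8 and over. Among genes with 32% T or more, the positive share was 23.7% at under 1 kb of exon and 50.3% at 8 kb or more, with medians of 0.15 and 0.30. By length of the 3′ UTR interval it was 15.8% (median 0.06) at under 0.25 kb and 66.1% (median 0.45) at 4 kb or more. In this T range the difference was thus larger in genes with long intervals. Among genes with under 28% T, the negative share was 40.3% (median -0.35) at 0.5 to 1 kb. It was 28.4% (median -0.27) at under 0.25 kb and 26.8% (median -0.16) at 4 kb or more. Removing the trend with T content by an offset (chosen after the data were seen) left 4077 genes called of 14263, against 5762 without it on the same genes, and 3052 were called with the same sign in both. The offset was fitted to this same T content, so the medians over the T ranges, -0.02 to 0.03, were near 0 by construction. With the offset, Tspan2 had 1.89, Slco1a4 1.40 and Mif -1.26, against 2.03, 1.62 and -1.45 without it.

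Values from outside the exon counts were compared by library. The share of reads that lay in 3′ UTR intervals was 16.4% to 17.2% in baseline 4sU, 18.7% to 20.3% in chronic 4sU, 18.2% to 18.8% in baseline DMSO and 18.5% to 19.0% in chronic DMSO libraries. Its difference of differences was 2.34 percentage points, from 2.56 in 4sU and 0.221 in DMSO mice (exact permutation test over 4410 arrangements of the stress labels within arms, two-sided, p = 0.0116, adjusted 0.0156 over 2 tests). Such permutation takes no stress difference in either arm as its null, a narrower case than equal differences in both arms. The rate of T-to-C conversion, the trace of 4sU in RNA, was 4.78 ± 0.499 per 10000 covered T positions (mean ± SD, n = 5) in baseline 4sU and 6.27 ± 1.35 (n = 4) in chronic 4sU libraries. DMSO libraries, which measure the background of sequencing errors and variants, had 2.75 ± 0.304 at baseline (n = 4) and 2.50 ± 0.143 under chronic stress (n = 3). The ranges of the 4sU groups, 4.22 to 5.46 and 4.86 to 7.78, overlapped. The difference of differences for conversion was 1.73 per 10000, from 1.49 in 4sU and -0.246 in DMSO mice (exact permutation test, two-sided, p = 0.0156, adjusted 0.0156). Because baseline 4sU libraries alone belong to the smaller numbered set, these 2 differences share the limit stated for the gene counts.

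The comparison of 4sU with DMSO under chronic stress, which like that of chronic stress with baseline in DMSO mice lies within the larger numbered set, called 22 genes, 4 higher and 18 lower with 4sU. The chronic 4sU and chronic DMSO libraries did not overlap in any of the 22, but the genes were picked by a test on these same libraries. The share of such genes over all genes tested was not computed. Of the 22, 16 were also called for the difference of differences, as were 38% of all genes tested. That contrast contains this comparison, so the shared calls are no separate result. Genes that copy DNA in dividing cells were among the lower ones, a grouping made after the values were seen. The replicative helicase subunit Mcm5 was at 4.34, 4.42, 4.85 and 4.73 CPM in chronic 4sU libraries and 11.4, 11.6 and 9.96 CPM in chronic DMSO libraries (-1.26 ± 0.17, adjusted p = 0.00654). It was at 9.65 to 14.7 CPM in baseline 4sU and 6.76 to 11.2 CPM in baseline DMSO libraries, so chronic 4sU libraries were below all others, and the difference of differences was -1.71 (adjusted p = 8.83e-06). Mcm3 (-1.26) and Mcm6 (-0.79) of the same complex, the DNA methylation factor Uhrf1 (-1.64) and the S-phase factor Tcf19 (-1.04) were lower in the same comparison. The differences of differences of these 4 were -1.36, -0.88, -1.72 and -1.36.

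Topoisomerase Top2a, which untangles DNA in dividing cells, was at 1.33, 1.41, 1 and 1.32 CPM in chronic 4sU and 9.89, 4.36 and 4.84 CPM in chronic DMSO libraries (-2.32 ± 0.32, adjusted p = 0.00654). It was at 1.25 to 2.92 CPM in baseline 4sU and 2.99 to 5.75 CPM in baseline DMSO libraries. Top2a was thus lower with 4sU at baseline too (-1.25, adjusted p = 0.000708), and its difference of differences of -1.07 did not pass (adjusted p = 0.0536). The proliferation marker Mki67 (-1.37), the mitotic kinase Pbk (-2.57) and the replication clamp partner Pclaf (-1.91) were lower under chronic stress as well. At baseline these 3 had -0.70, -0.89 and -0.97 (adjusted p = 0.0132, 0.044 and 0.0158), in a comparison that crosses the numbered sets.

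The other lower genes included receptors and enzymes of immune cells. The bacterial lipoprotein receptor Tlr2 (-1.08) was at 2.13 to 3.59 CPM in chronic 4sU and 5.24 to 6.20 CPM in chronic DMSO libraries. With it came Cd180 (-1.10), the macrophage lectin Siglec1 (-1.54), the leukocyte protein Bin2 (-0.89), leukotriene synthase Ltc4s (-0.75) and the histocompatibility gene H2-Q4 (-1.19), a member of a family of close relatives whose counts are uncertain. Efcab12 (-0.57), Defb11 (-1.94) and D17H6S56E-5 (-1.16) completed the lower genes. Higher with 4sU were Gpr17 (0.67 ± 0.09, adjusted p = 0.00701), Tspan2 (0.54), Plekha1 (0.29) and Sspo (0.77). The number of calls rested on single libraries: it was 2 without chronic DMSO library 2, 7 without chronic 4sU library 1 or 3, 11 and 12 without chronic DMSO libraries 3 and 1, and 16 and 19 without chronic 4sU libraries 2 and 4. Without both chronic libraries lowest in glutamatergic markers in their groups it was 20, of which 7 were among the 22.

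**Figure D5:**
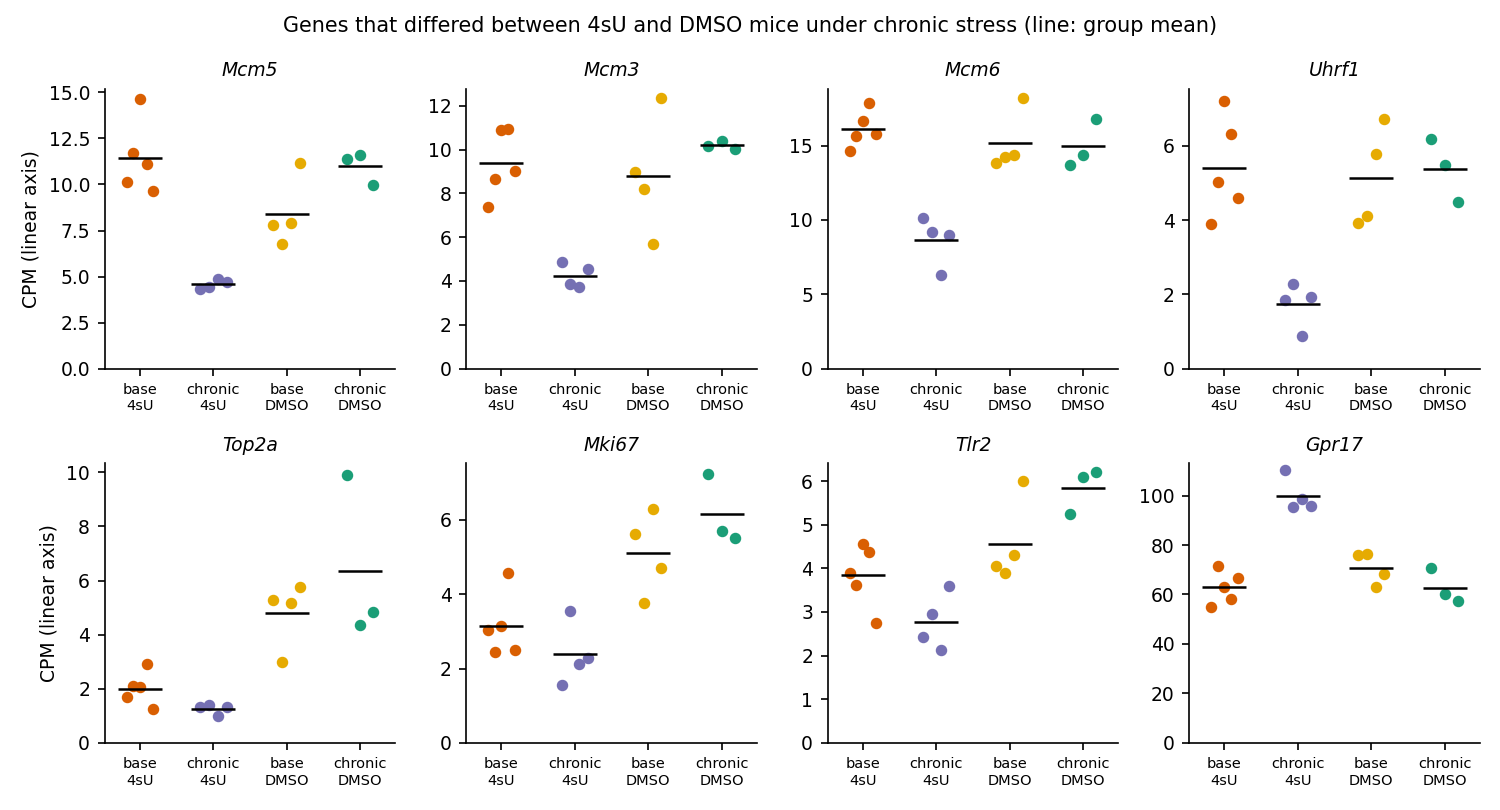
Normalised exon counts in CPM, on linear axes from 0, of 8 of the 22 genes that differed between 4sU and DMSO mice under chronic stress. Points are libraries and lines are group means. Mcm5, Mcm3, Mcm6 and Uhrf1 are lowest in the 4 chronic 4sU libraries, Gpr17 is highest there, and Top2a is low in both 4sU groups.

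Whether the injection difference was particular to chronic stress was tested against acute stress, in a fit of all 6 amygdala groups from which the baseline libraries cancel. The injection difference under chronic stress departed from that under acute stress for 5117 of 16310 genes (31.4%), 2734 higher and 2383 lower. The acute 4sU libraries lie in the smaller numbered set and the chronic 4sU libraries in the larger one, so this test crosses the sets as well. The difference of differences for acute stress, in which each arm stays within its set, called 0 of 16310 genes (0%) by edgeR, with 1062 at an unadjusted p under 0.05, 12 by DESeq2 and 0 by limma-voom. In that fit the chronic form called 4114 genes. The acute DMSO libraries were uneven. Their glutamatergic markers averaged a log2 CPM of 2.92 to 5.48, against 5.35 to 5.84 in acute 4sU libraries. Acute DMSO library 2 had 23.9% of its reads in 3′ UTR intervals, and the group's median was 18.6%. This spread enters both tests that use acute libraries, and its part in the acute count of 0 was not tested. Of the leading genes, Tspan2 had -0.44 in the acute form and 2.49 ± 0.18 for chronic against acute, and Mif -0.33 and -1.09 ± 0.21. Slco1a4 had 0.34 in the acute form and 1.30 ± 0.24 for chronic against acute (adjusted p = 0.000242). The acute values of these 3 genes were small beside their chronic ones, and the 2 forms share all 9 baseline libraries.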

How the data were processed

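The authors deposited exon counts per gene symbol as whole numbers without normalization, in a table of baseline and chronic libraries and another of baseline and acute libraries, whose 9 shared baseline columns differed in 0 values. Build mm10 and featureCounts 2.0.1, SAMtools 1.9, HISAT2 2.1.0 and cutadapt 3.1 are named in the submitters' processing notes. For 3′ UTR intervals the authors deposited counts of reads, covered T positions and conversions and a CPM column scaled by them, which slamdunk 0.4.3 wrote, per the file headers. The sources used here do not give strand and multiple-match settings, so overlapping, antisense and paralogous genes are uncertain. Library kits were VAHTS Universal V8, per the labels' protocols.

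Counts were tested with edgeR 4.0.16 (R 4.3.3; TMM scaling, filterByExpr, robust quasi-likelihood fit, 1 coefficient per group; two-sided, Benjamini-Hochberg over all genes). Printed CPM are normalised by TMM library sizes. DESeq2 1.42.0 and limma 3.58.1 (voom) were alternatives. Tables, exact tests and figures used Python 3.11.15, pandas 2.3.3, numpy 2.4.6, SciPy 1.17.1 and matplotlib 3.10.9. T content offsets were a lowess trend (span 0.3) per library. T-rich and T-poor genes had a mean log2 CPM of at least 2. The test was checked on simulated data.

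The comparison, the 32 gene lists and the naming rule were chosen with earlier results of these data known. Named genes are the 8 largest positive and negative called differences at a mean of at least 5 CPM, leaving out predicted symbols, up to 3 called members per list by smallest p, 15 fixed genes, and the 2 called genes with the smallest p at either end of exon length and span. The 22 genes of 4sU against DMSO under chronic stress, Trf and Enpp2 were named after their values were seen. A check of promoter GC was void, as only 78.4% of genes had a value. Replicate numbers were shared by the labels, but same-numbered libraries did not deviate together (r -0.37 to 0.27 over 21 pairs, 2 of 16 libraries closest to their own number). No pair of libraries of a group agreed within counting noise (chi-square per degree of freedom 3.65 to 37.7). Results for some genes are left out of the text.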

Additional observations from a re-analysis of the deposited data

Results flagged for a closer look

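The stress response differed between 4sU and DMSO mice by the test of the difference itself for 2917 genes with a positive and 3204 with a negative sign. The injection difference under chronic stress differed from that under acute stress for 5117 genes. The difference of differences was 2.34 percentage points for reads in 3′ UTR intervals and 1.73 conversions per 10000 covered T positions. All of these results cross the numbered sets, which cannot be told apart from the groups. Within the larger set, 0 genes were called by edgeR for chronic stress against baseline in DMSO mice. For 4sU against DMSO under chronic stress 22 were called.

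In 354 groups of 4 or 5 libraries, 22 had a highest or lowest library far from the rest of its group (Dixon's test), and chance gives about 1 in 20. Baseline 4sU library 5 had 18.9 CPM of Igfn1, 306 of Uqcrc1, 210 of Atp5d and 81.1 of Ndufs7, the last 3 being respiratory chain genes. Library 1 had 14.1 CPM of Abcb1a and 23.8 of Nop58, and library 2 had 13.3 of Idi1 and 327 of Peg13. Library 3 had 37.7 CPM of Elavl4, and library 4 had 8.03 of Cfap126. Chronic 4sU library 3 had 0.414 CPM of Igfn1, 6.8 of Bmp6, 1.89 of Ier2 and 275 of Peg13. Chronic 4sU library 1 had 49.9 CPM of P2ry12, and library 4 had 229 of Unc13a. Baseline DMSO library 4 had 15.7 CPM of Tgm1 and 131 of Tra2a. Baseline DMSO library 3 had 40.8 CPM of Arc, 741 of Gad1, 36.7 covered T positions per 3′ UTR read and 0.23 for T-rich less T-poor genes.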

How the results depend on the processing

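The count of 6121 genes was 6051 with RLE scaling, 6044 with upper-quartile scaling, 6140 by DESeq2, 6142 by limma-voom, 5758 without a filter, 5911 without the chronic libraries lowest in glutamatergic markers and 6192 with an exon length offset. Leaving out 1 library gave 5229 to 6069 (2752 to 3158 positive, 2430 to 3166 negative), and for chronic against acute stress 4149 to 6710. It gave 2.05 to 2.59 points for 3′ UTR reads and 1.23 to 2.20 for conversions. With all 6 groups in the fit 1934 were negative. A term for the share of 3′ UTR reads gave 4040 (1934 positive, 2106 negative), the T content offset 4077 (1962 negative), and that offset with the replicate block 3517 (1813 and 1704). The cause of these moves was not tested.

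With a replicate block 5571 genes were called, and 11 for 4sU against DMSO under chronic stress, where leaving out 1 library gave 2 to 19. The numbers mark no pairing in the labels or the data. Positive splicing factor genes numbered 10 with the 3′ UTR term, 9 with the T content offset and 9 with block and offset, and zinc finger genes 12, 13 and 11. Negative immediate early genes numbered 6 at a mean of at least 5 CPM, 3 with all 6 groups, 2 with 3′ UTR reads, 6 with block and exon length offset, 3 with the T content offset, 2 with block and offset, and 3 to 13 without 1 library. Negative postsynaptic genes numbered 7, 5 and 3 with the 3′ UTR term, the offset, and block and offset, and 7 to 13 without 1 library. Presynaptic ones numbered 4 with the term, 15 without the libraries lowest in glutamatergic markers, and 6 to 14 without 1 library. Positive oligodendrocyte markers numbered 16 without any 1 library.

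Of 102 called named genes 53 kept sign and call in every alternative, while 29 lost the call without a change of sign with the 3′ UTR term, 17 with 3′ UTR reads and 9 with the T content offset. Signs reversed as follows. With the 3′ UTR term Pmaip1 had -0.16, Sgk1 -1.30, Bdnf 0.77, Crh -0.0301, Gfap 0.0402, Slc17a7 0.34, Gad1 -0.0678 and Malat1 -0.25. With 3′ UTR reads Tubb3 had 0.18, Nefl 0.25 and Fos 0.34. Fkbp5 had 0.0706 with the T content offset and -0.29 to 0.0994 without 1 library, above 0 for 4 of them. With block and offset Sgk1 had -0.15 and Gad1 -0.00149. Malat1 had -0.00299 with the exon length offset, -0.15 when the libraries lowest in glutamatergic markers were dropped, and down to -0.0876 without 1 library. The GC alternative was not run, since no genome was used here. The labels do not say what the header numbers stand for.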
